A study of Homo sapiens with 8 samples.

Results

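The genes described here are 6 genes of cellular iron handling: the ferritin subunits FTH1 and FTL, the transferrin receptor TFRC, the iron-regulatory proteins ACO1 and IREB2, and the ferritin receptor NCOA4. They were taken by symbol, and all 6 are among the 14668 genes of the count table. The samples were T3M4 cells, an established human pancreatic cancer line, that expressed a guide RNA against METTL13 (sgMETTL13) or a non-targeting guide (sgControl). METTL13 is a methyltransferase of the translation elongation factor eEF1A. Cells of both guides went 18 h without serum and then received 10% FBS for 2 h. Messages were measured by poly(A) RNA-seq, and translation by ribosome profiling, which counts the mRNA fragments that ribosomes protect (footprints), here from ribosomes captured on puromycin-analog beads, with 2 libraries for each guide in each assay and 8 in all. The labels do not say whether the cells were clones or a pool, or if the replicates came from different cultures. The p-values therefore cover the spread between these libraries, which may be technical.

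Cells keep free iron low by balancing uptake, storage and release. TFRC, the receptor for iron-loaded transferrin, brings iron in, a shell of heavy (FTH1) and light (FTL) ferritin chains stores it, and NCOA4 carries ferritin to the lysosome, where the iron is released. When iron is scarce, the RNA-binding proteins IRP1 (encoded by ACO1) and IRP2 (encoded by IREB2) bind a hairpin called the iron-responsive element. Binding near the 5′ end of ferritin mRNAs blocks the start of translation, and binding in the 3′ part of TFRC mRNA protects the message from decay. Ferritin is therefore a textbook case of a gene whose translation is set apart from its mRNA level. With iron at hand, IRP1 carries an iron-sulfur cluster and works as cytosolic aconitase, whereas IRP2 is degraded.

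The hairpin is shown for FTL because the footprint results below turn on the ferritin messages, and FTL is the gene among the 6 whose RefSeq promoter window (GRCh38.p14, 250 bases before to 50 bases after the transcript start) held it. The stretch is bases 21 to 50 of the transcript, on the plus strand at chr19:48965329-48965358, and the capitals mark the 6 bases of the loop, at transcript bases 39 to 44.
FTL: gtctgtctcttgcttcaaCAGTGTttggac
The search asked, on both strands, for a C, any 5 bases, the loop CAGTGN and 5 bases that pair with the 5 before the loop (G with T allowed). Matches that lay on the transcript strand after the start were found in 8 of 35116 windows (0.0228%), among them FTL and ALAS2, the erythroid heme synthesis gene. On either strand and anywhere in the window, 76 windows (0.216%) matched. Of the 6 genes, 5 had a window under their symbol. FTH1 had none, so it was not searched, and nothing is said here about its element. The windows of TFRC, ACO1, IREB2 and NCOA4 held no match on the transcript strand, which says only that these letters are not in those windows.

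RNA libraries held 20860953 to 48353722 counts and footprint libraries 6063885 to 9837253, the shallowest of each being sgControl replicate 2. Values per library are counts scaled to TMM-normalised library sizes (CPM). METTL13, the targeted gene, read 20.12 and 26.24 CPM in sgMETTL13 footprints, against 65.21 and 57.79 CPM in sgControl footprints. Its mRNA read 25.2 and 35.05 CPM in sgMETTL13, against 89.71 and 71.38 CPM in sgControl. The 5 epithelial markers (KRT8, KRT18, KRT19, EPCAM and CDH1) were present, with summed mRNA of 2830 and 4130 CPM in sgMETTL13 and 3580 and 4110 CPM in sgControl. The 4 fibroblast, 2 leukocyte and 3 endothelial markers in the table summed to at most 32.9, 49.3 and 1.59 CPM in any RNA library. The sgMETTL13 RNA replicates stood apart from each other: the SD of their log2 difference over 12468 genes was 0.847, against 0.365 in sgControl RNA, 0.277 in sgMETTL13 footprints and 0.326 in sgControl footprints. The SD does not show which of the 2 sgMETTL13 RNA replicates is the odd one. Results on mRNA are therefore also given without replicate 1 and, for some genes, without replicate 2.

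Both ferritin genes had very few footprints for their mRNA. FTH1, the heavy chain, which oxidises iron as it enters the shell (chromosome 11, 61964285 to 61967634), gave 409 and 337 footprint counts in sgMETTL13 and 273 and 151 in sgControl, beside 107954 and 120591 mRNA counts in sgMETTL13 and 103524 and 61838 in sgControl. FTL, the light chain, which helps the iron core form (chromosome 19, 48965309 to 48966879), gave 192 and 230 footprint counts in sgMETTL13 and 133 and 86 in sgControl, beside 55417 and 72492 mRNA counts in sgMETTL13 and 50136 and 37636 in sgControl. As a ratio of footprint CPM to mRNA CPM, FTH1 stood at 0.0149 in sgMETTL13 and 0.0102 in sgControl. The FTL ratio was 0.015 in sgMETTL13 and 0.00974 in sgControl. The median over 10446 genes measured in both assays was 0.782 in sgMETTL13 and 0.859 in sgControl, and only 39 of these genes lay below FTH1 and 37 below FTL in sgControl. In sgMETTL13 44 genes lay below FTH1 and 45 below FTL. The ratio compares fragments of coding sequence with reads of the whole mRNA, so it also depends on how much of the message is coding.

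TFRC and NCOA4 lay near the middle of all genes, ACO1 above it and IREB2 below it. In the same ratio TFRC stood at 0.879 in sgMETTL13 and 0.866 in sgControl. ACO1 stood at 1.43 in sgMETTL13 and 1.09 in sgControl, and NCOA4 at 0.739 in sgMETTL13 and 0.703 in sgControl. IREB2 stood at 0.281 in sgMETTL13 and 0.35 in sgControl, where 23.5% of genes lay below it. The median ratio was lower in genes with more pseudogene copies. RefSeq lists 27 numbered pseudogenes of FTH1 and 20 of FTL, 4 of NCOA4 and 0 of TFRC, ACO1 and IREB2, and it is not stated how reads that match several places were counted. Over all genes the median sgControl ratio was 0.892 for 8626 genes with 0 numbered pseudogenes and 0.197 for 128 genes with 10 or more. Of those 128 genes, 48 encode ribosomal proteins, and without them the median was 0.263. Of the 128, 42.2% had a ratio below 0.1, against 4.87% of the genes with 0. FTH1 and FTL lay below the lower quartile of the 128 (0.027), with 21 of these genes below FTH1 and 19 below FTL. Among the genes with 0 numbered pseudogenes, 4 lay below each. What part pseudogene copies have in the ferritin ratios was not tested.

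**Figure D1:**
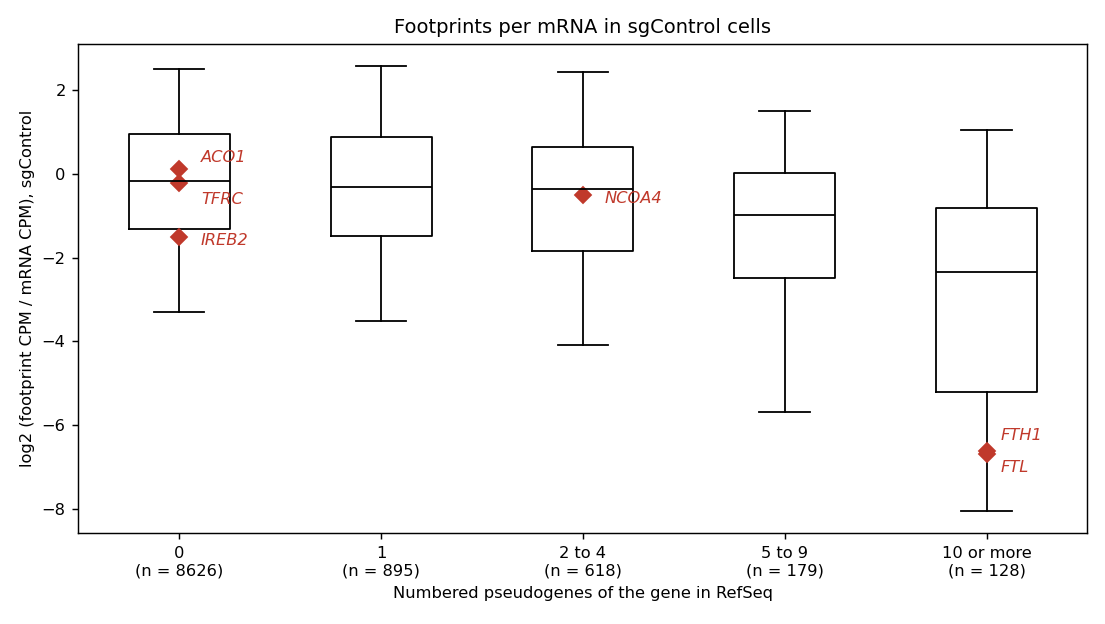
Ratio of footprint CPM to mRNA CPM in sgControl cells (log2, y axis) for genes grouped by the number of numbered pseudogenes in RefSeq (x axis), with boxes at the quartiles, whiskers at the 5th and 95th percentile and the 6 iron genes as diamonds. FTH1 and FTL, at -6.61 and -6.68, lie below the box of the 128 genes with 10 or more pseudogenes, while the other 4 lie between -1.51 and 0.12.

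In footprints, FTL and TFRC were called higher in sgMETTL13, and the other members had positive fold changes that did not pass. Of 11 alternative settings, FTL passed in 5 and TFRC in 6, and neither passed with the replicate number as a block. FTL footprints were 19.51 and 25.25 CPM in sgMETTL13, against 16.09 and 14.71 CPM in sgControl. The log2 fold change was 0.53 with an SE of 0.192 (2 libraries per guide, edgeR adjusted p = 0.0474). TFRC (chromosome 3, 196049284 to 196082090) had 459.4 and 418.8 CPM in sgMETTL13, against 358.8 and 315.8 CPM in sgControl. Its log2 fold change was 0.38 with an SE of 0.123 (edgeR adjusted p = 0.0274). These are differences of 1.45-fold for FTL and 1.3-fold for TFRC, and in both genes each sgMETTL13 library lay above each sgControl library. Of all 10714 genes tested in footprints, 21% passed (edgeR adjusted p below 0.05), with 8.94% higher in sgMETTL13, as these 2 members were, and 12% lower. In the class of 128 genes with 10 or more numbered pseudogenes, to which FTL belongs, 36.7% were called higher, against 7.27% of genes with 0, the class of TFRC. Of the 128, 48 encode ribosomal proteins, and the share called higher without them was not computed. In such bulk libraries, a change in a part of the cells and a change in every cell cannot be told apart.

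FTH1 footprints read 41.56 and 37 CPM in sgMETTL13, against 33.03 and 25.82 CPM in sgControl. The log2 fold change was 0.41 (SE 0.165, 95% interval 0.07 to 0.745, edgeR adjusted p = 0.0764), close to that of its partner chain FTL but not past the threshold. Genes with 10 or more numbered pseudogenes, to which both ferritins belong, had a median footprint log2 fold change of 0.32, or 0.21 without the ribosomal proteins, against -0.01 for genes with 0. Both ferritin values lie above these medians, and the part of shared reads in them was not tested.

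Both iron-regulatory proteins had fold changes of the size of the ferritins' without passing. ACO1 (chromosome 9, 32384643 to 32454769) had 130.7 and 135.4 CPM in sgMETTL13, against 110.2 and 97.64 CPM in sgControl. On the log2 scale the difference was 0.35 (SE 0.134, 95% interval 0.081 to 0.627, edgeR adjusted p = 0.0567). IREB2 (chromosome 15, 78437431 to 78501453) had 14.12 and 13.17 CPM in sgMETTL13, against 11.13 and 7.353 CPM in sgControl. On the log2 scale that is 0.54 (SE 0.225, 95% interval 0.075 to 0.995, edgeR adjusted p = 0.0866), on as few as 43 counts in sgControl replicate 2. NCOA4 (chromosome 10, 46005088 to 46030623) differed least, with 137.2 and 128 CPM in sgMETTL13, against 126.4 and 120.7 CPM in sgControl. Its log2 fold change was 0.10 (SE 0.131, 95% interval -0.167 to 0.369, edgeR adjusted p = 0.625).

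**Figure D2:**
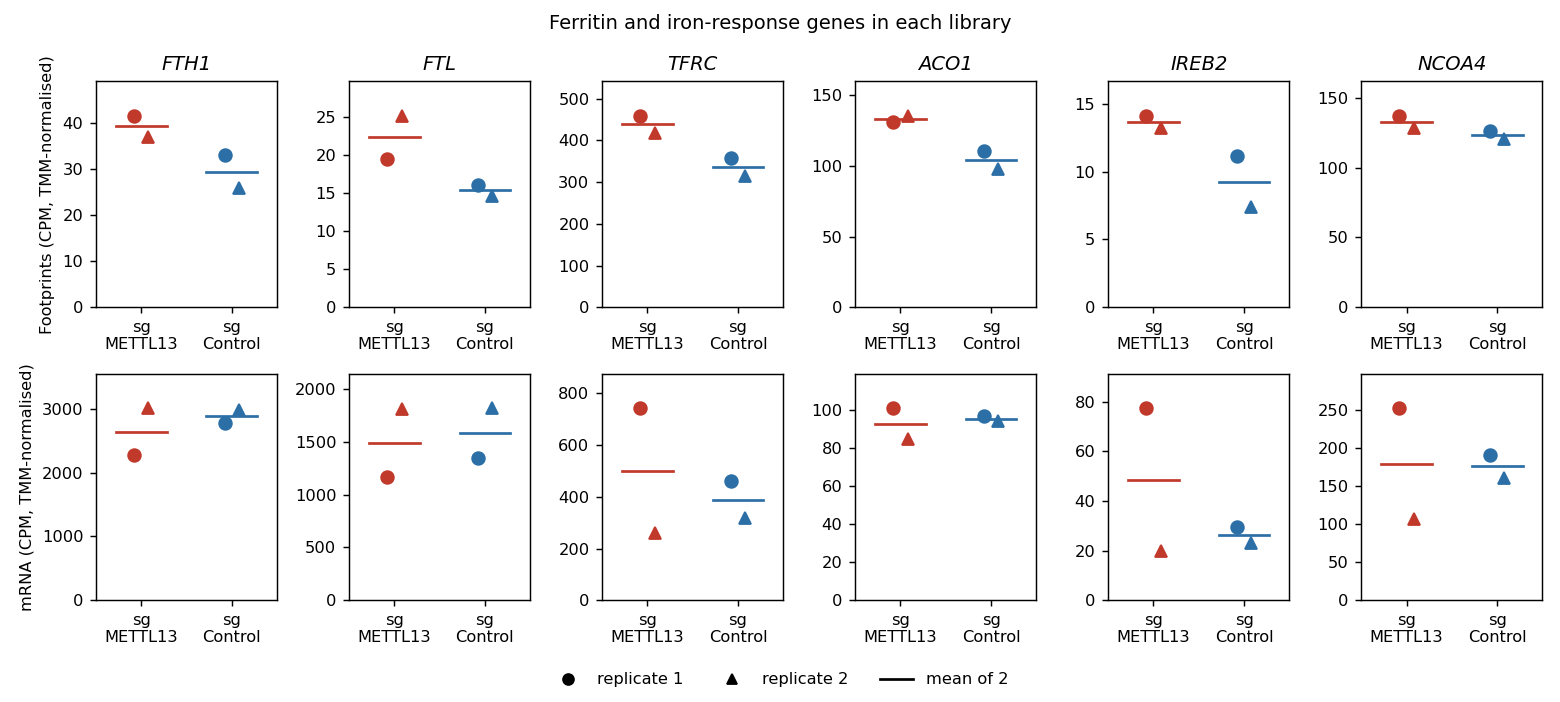
Footprints (upper row) and mRNA (lower row) of the 6 genes in each library, in TMM-normalised CPM on linear axes from 0, with a circle for replicate 1, a triangle for replicate 2 and a bar for their mean. Footprints of all 6 genes lie higher in both sgMETTL13 libraries than in both sgControl libraries, as in 32% of all genes, while 32% lie lower. In mRNA the guides overlap in all 6, and of all genes only 5.11% lie higher without overlap and 6.84% lower. The mRNA values are widely split in sgMETTL13 for TFRC, IREB2 and NCOA4.

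Considered together, the 6 genes had a median footprint log2 fold change of 0.39, against 0.00881 over all genes tested. The guides did not overlap in any of the 6, all upward, as held for 32% of all genes, and 32% did so downward. An unadjusted p below 0.05 was reached by 5 of the 6, all upward, against 16.2% of all genes upward and 34.6% in either direction. In each of the 6 genes sgControl replicate 2, the shallowest library, held the lowest footprint value. Without that library no member passed (FTL at 0.47, TFRC at 0.29), and the same held without sgMETTL13 replicate 2 (FTL at 0.34, TFRC at 0.45). TFRC also lost its call without sgMETTL13 replicate 1 (0.31), and without sgControl replicate 1 the members that passed were all but NCOA4, with FTH1 at 0.61, ACO1 at 0.45 and IREB2 at 0.89. Without sgControl replicate 2 FTH1 read 0.25, ACO1 0.27 and IREB2 0.29, so these values rest on which sgControl library is used. DESeq2, which called 16.6% of genes, called TFRC (adjusted p = 0.039) and not FTL (adjusted p = 0.132). With library totals alone as scaling edgeR did not call FTL (adjusted p = 0.0543). A fit of all 8 libraries in 1 model called no gene at all, these members included (edgeR adjusted p = 0.842 for TFRC and 0.622 for FTL). It takes 1 spread per gene over both assays, and the RNA libraries vary more, so it cannot decide on these members.

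At the mRNA level no member passed (0 of 6, with 0% of 12468 genes called, and 0 members at an unadjusted p below 0.05), and DESeq2 called 0 of all genes. The targeted gene METTL13, with an mRNA log2 fold change of -1.42 (SE 0.406), was not called either. A lack of calls in this fit therefore does not show that mRNA was unchanged. Across all genes edgeR reached an unadjusted p below 0.05 for 100 (0.802%). The guides overlapped in all 6 members, while 5.11% of genes lay higher without overlap and 6.84% lower. FTH1 mRNA was 2280 and 3006 CPM in sgMETTL13, against 2785 and 2978 CPM in sgControl (log2 fold change -0.12, SE 0.328). FTL mRNA was 1170 and 1807 CPM in sgMETTL13, against 1349 and 1813 CPM in sgControl (log2 fold change -0.09, SE 0.356). For both ferritins replicate 1 was the lower library under either guide. ACO1 mRNA varied little, at 101 and 85.09 CPM in sgMETTL13 and 97.27 and 94.16 CPM in sgControl (log2 fold change -0.04, SE 0.354).

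In the remaining members the sgMETTL13 replicates lay far apart. TFRC mRNA read 741.1 and 258.3 CPM in sgMETTL13, against 460.3 and 318.4 CPM in sgControl (log2 fold change 0.36, SE 0.462). IREB2 mRNA read 77.24 and 19.87 CPM in sgMETTL13, against 29.6 and 23.21 CPM in sgControl (0.88, SE 0.567), and NCOA4 mRNA 251.8 and 106.9 CPM in sgMETTL13, against 191.1 and 160.4 CPM in sgControl (0.03, SE 0.421). In these 3 genes, as in FTH1 and ACO1, the sgMETTL13 libraries lay on either side of both sgControl libraries. The gap between the sgMETTL13 replicates was 1.93 (log2) for IREB2, wider than in 95.5% of genes, and 1.52 for TFRC and 1.23 for NCOA4. Without sgMETTL13 replicate 1 the log2 fold changes were -0.53 for TFRC, -0.35 for IREB2, -0.65 for NCOA4, 0.13 for FTH1, 0.26 for FTL and -0.10 for ACO1, none of which passed (edgeR adjusted p = 0.728 or more). Without sgMETTL13 replicate 2 TFRC (0.93, edgeR adjusted p = 0.0213) and IREB2 (1.54, edgeR adjusted p = 6.84e-07) passed, so the direction of their mRNA rests on which library is used.

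Footprints per mRNA, tested as the interaction of assay and guide over all 8 libraries, passed for no member (0 of 6, with 0% of 10446 genes called, and 0 members at an unadjusted p below 0.05). This fit also takes 1 spread per gene over both assays, and the RNA libraries vary more. A lack of calls in it therefore does not show that footprints per mRNA were unchanged. Across all genes edgeR reached an unadjusted p below 0.05 for 347 (3.32%, with 1.03% upward) and DESeq2 called 5 (0.0479%), no member among them. The log2 differences were 0.55 for FTH1 (SE 0.333, 95% interval -0.199 to 1.298), 0.63 for FTL (SE 0.409, 95% interval -0.287 to 1.553) and 0.41 for ACO1 (SE 0.315, 95% interval -0.297 to 1.12). They were 0.10 for NCOA4 (SE 0.493), 0.04 for TFRC (SE 0.579) and -0.30 for IREB2 (SE 0.748). The median over all genes was -0.112. The ferritin values lay above 92.9% (FTH1) and 95% (FTL) of all genes, but their intervals include 0. Without sgMETTL13 RNA replicate 1 FTH1 read 0.27, FTL 0.26, TFRC 0.89, IREB2 0.87 and NCOA4 0.74, none past the threshold, and the median of all genes was 0.005. Without sgMETTL13 RNA replicate 2 FTL passed at 1.01 (edgeR adjusted p = 0.0433) while TFRC read -0.51, IREB2 -0.97 and NCOA4 -0.38.

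**Figure D3:**
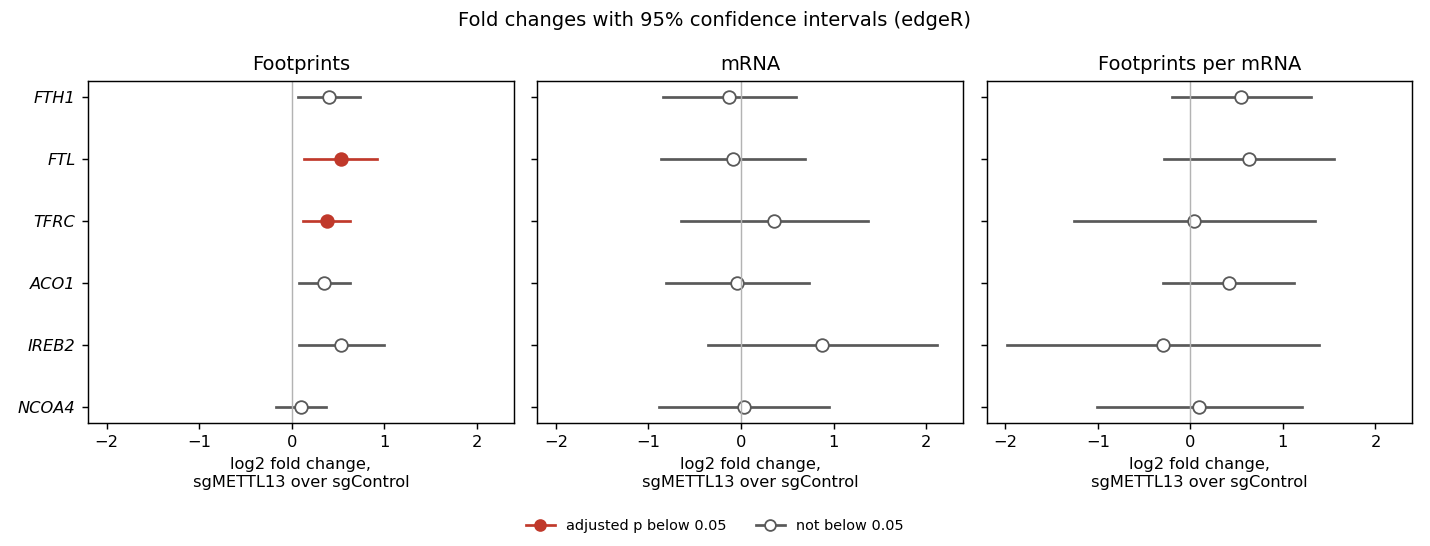
Log2 fold changes of sgMETTL13 over sgControl (x axis) with 95% confidence intervals for the 6 genes in footprints, mRNA and footprints per mRNA, filled where the edgeR adjusted p was below 0.05. FTL at 0.53 and TFRC at 0.38 in footprints are the filled points, and every interval for mRNA and for footprints per mRNA includes 0.

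Ratios of raw counts within a library do not depend on normalisation. The ratio of FTL to FTH1 was 0.469 and 0.682 in sgMETTL13 footprints and 0.487 and 0.57 in sgControl footprints, beside 0.513 and 0.601 in sgMETTL13 mRNA and 0.484 and 0.609 in sgControl mRNA. The ratio of the 2 chains thus lay in much the same range in both assays and under both guides, with replicate 2 the higher in each group. TFRC and the ferritins are targets on which iron-regulatory proteins act in opposite directions. TFRC counts per FTH1 count were 11.1 and 11.3 in sgMETTL13 footprints and 10.9 and 12.2 in sgControl footprints, so the sgMETTL13 libraries lay between the sgControl libraries. TFRC counts per FTL count were more spread, at 23.5 and 16.6 in sgMETTL13 footprints and 22.3 and 21.5 in sgControl footprints, and the guides overlapped. In mRNA the ratio of TFRC to FTH1 was 0.325 and 0.0859 in sgMETTL13 and 0.165 and 0.107 in sgControl. Footprints of ACO1 per footprint of IREB2 were 9.25 and 10.3 in sgMETTL13 and 9.9 and 13.3 in sgControl. NCOA4 footprints per FTH1 footprint were lower in both sgMETTL13 libraries, at 3.3 and 3.46, against 3.83 and 4.68 in sgControl. In mRNA that ratio was 0.11 and 0.0355 in sgMETTL13 and 0.0686 and 0.0539 in sgControl, and the guides overlapped. How often ratios of other gene pairs separate the guides was not computed. These ratios are given as descriptions, with no test.

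Among other iron genes calls in footprints were no more frequent than among all genes. Of 68 genes in 6 lists, 57 were tested, 3 rose and 6 fell, which is 15.8% against 21% of all genes. Their log2 fold changes had a median of -0.05. The counts in single lists that follow stand beside 8.94% of all genes higher and 12% lower, and with so few genes a list they describe the named genes and not the pathways. Among other mRNAs known to carry an iron-responsive element, 1 of 4 tested rose. It was SLC11A2, the iron transporter DMT1, whose known element lies in the 3′ part of the message as in TFRC. SLC11A2 had 14.53 and 14.71 CPM in sgMETTL13, against 9.194 and 10.26 CPM in sgControl (log2 fold change 0.59, SE 0.212, edgeR adjusted p = 0.0438). DESeq2 did not call it (adjusted p = 0.146), and edgeR lost the call without any 1 of the 4 footprint libraries (adjusted p from 0.0979 to 0.198). The other 3 did not pass, among them CDC42BPA, a kinase, at 0.22 (SE 0.145), and EPAS1, the hypoxia factor HIF-2α, at -0.12 (SE 0.146).

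Of 12 tested genes of iron uptake, export and storage, 2 fell and 0 rose, against 12% of all genes lower and 8.94% higher. STEAP3, the endosomal reductase that prepares iron from transferrin for transport, had 14.02 and 14.71 CPM in sgMETTL13, against 22.26 and 37.28 CPM in sgControl. The difference, -1.03 in log2 with an SE of 0.205, was the largest of the 57 (edgeR adjusted p = 7e-04). It rested in part on the high sgControl replicate 2, without which it was -0.64 (edgeR adjusted p = 0.0517). STEAP3 acts downstream of TFRC in the same endosome, and the footprints of the pair moved in opposite directions. SLC39A14, a transporter of zinc and of iron not bound to transferrin, read 138.8 and 124.9 CPM in sgMETTL13, against 158.5 and 204.7 CPM in sgControl (-0.46, SE 0.138, edgeR adjusted p = 0.0177), and -0.27 without sgControl replicate 2 (edgeR adjusted p = 0.296). The iron chaperone PCBP2, which delivers iron to ferritin, read 0.26 (SE 0.116), while PCBP1 of the same list read -0.215 (SE 0.117). HERC2, a ubiquitin ligase that controls NCOA4, read 0.42 (SE 0.168). None of these passed the threshold.

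Of 5 genes of the ligases that act on iron-regulatory proteins, RBX1, the RING subunit of cullin ligases, rose. It had 109.1 and 119.9 CPM in sgMETTL13, against 88.67 and 79.51 CPM in sgControl (0.44, SE 0.137, edgeR adjusted p = 0.0207). FBXL5, the iron-sensing subunit that marks IRP2 for degradation, read 0.26 (SE 0.183) without passing. Of 14 heme genes 2 fell, a share near the 12% of all genes. They were the synthesis enzymes UROD at -0.47 (SE 0.134, edgeR adjusted p = 0.012) and UROS at -0.65 (SE 0.228, edgeR adjusted p = 0.0402). UROS was not called by DESeq2 (adjusted p = 0.135) or with library totals alone as scaling (edgeR adjusted p = 0.0621). ALAS1, the rate-limiting enzyme of heme synthesis, read -0.35 (SE 0.147), and the heme exporter FLVCR1 -0.37 (SE 0.146), neither past the threshold.

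Genes of iron-sulfur cluster assembly serve the cofactor that sets the form of IRP1. In the mitochondrial list 1 of 13 rose, against 8.94% of all genes. It was the chaperone HSPA9 at 0.35 (SE 0.118, edgeR adjusted p = 0.0322), with a list median of 0.16. In the cytosolic list 2 of 9 fell, against 12% of all genes. They were the scaffold subunit NUBP2 at -0.75 (SE 0.163, edgeR adjusted p = 0.00169) and the targeting subunit CIAO1 at -0.42 (SE 0.136, edgeR adjusted p = 0.0281), with a list median of -0.12. Of the 9 iron genes called in the lists, 1 kept its call without sgControl footprint replicate 2 (NUBP2) and 1 without sgMETTL13 footprint replicate 2 (STEAP3). No gene of the 6 lists passed in mRNA (61 tested) or in footprints per mRNA (56 tested).

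**Figure D4:**
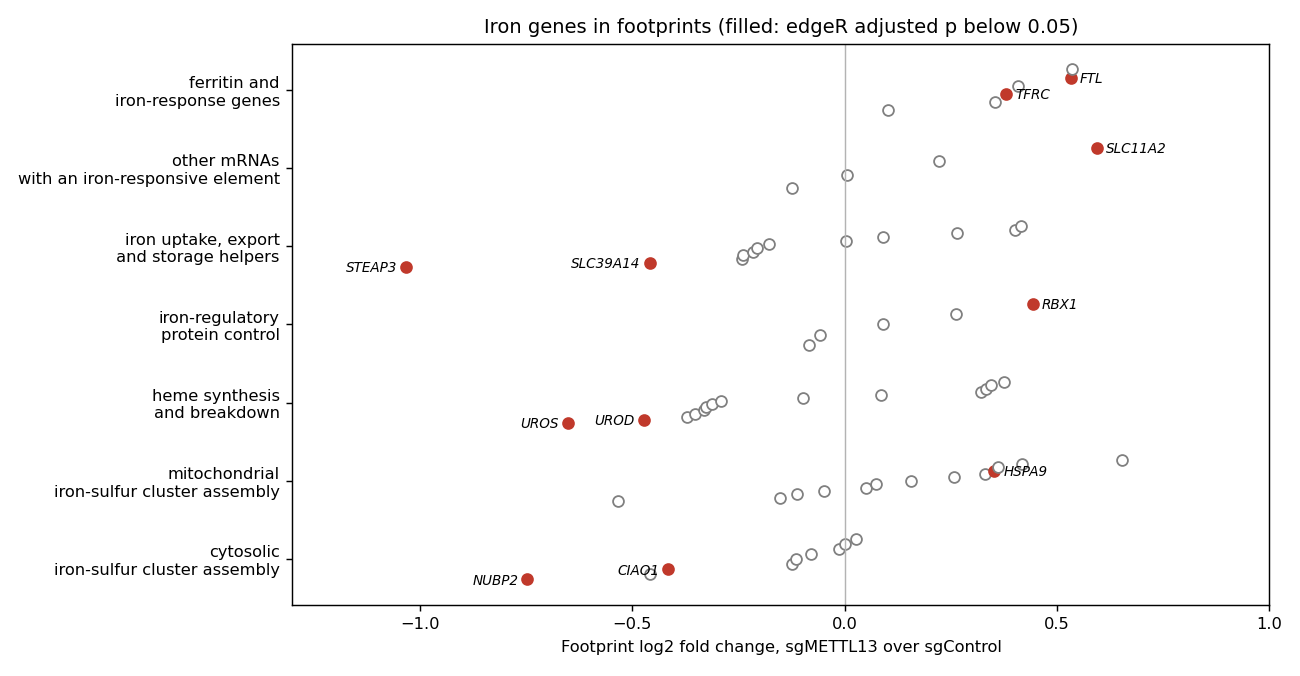
Footprint log2 fold change of sgMETTL13 over sgControl (x axis) for every tested gene of the iron pathway, with a point per gene in rows by list, filled and named where the edgeR adjusted p was below 0.05. The 6 members lie between 0.10 and 0.54, while the lists spread to both sides of 0, with STEAP3 farthest to the left at -1.03.

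Likeness of profile was taken as the smallest Euclidean distance between log2 CPM values centred within each assay, over the 8 libraries and 8164 genes. The 2 genes nearest to FTH1 were EDC3 (distance 0.105) and TXN2 (0.137), and those nearest to FTL were GNAI2 (0.144) and EIF4EBP1 (0.193). IARS2 and ATP2C1 were nearest to TFRC (0.129 and 0.157), INVS and KIF4A to ACO1 (0.0864 and 0.136), APPBP2 and TMEM135 to IREB2 (0.223 and 0.239), and BRAF and TTC13 to NCOA4 (0.123 and 0.147). Median distances to all genes ran from 0.854 for ACO1 to 1.67 for IREB2. No member was among the nearest genes of another. These profiles include the gap between the sgMETTL13 RNA replicates, which was 1.93 (log2) for IREB2, 1.52 for TFRC and 1.23 for NCOA4. What part that gap has in the nearness was not tested.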

How the data were processed

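The authors deposited 1 table of raw counts, with a row per gene symbol and a column for each of 8 libraries. The submitters' processing notes list cutadapt 1.18, Bowtie 1.2.2, HISAT2 2.0.4, UMI-tools, featureCounts and hg38, without roles. Annotation, strand setting and the treatment of multi-mapping reads are not given in the sources used here. In R 4.3.3, edgeR 4.0.16 (glmQLFit and glmQLFTest, TMM factors, filterByExpr) was run on the 4 footprint libraries, the 4 RNA libraries and, for footprints per mRNA, all 8 with an interaction of assay and guide. Adjustment was Benjamini-Hochberg over all genes tested, with a threshold of 0.05. A standard error is the log2 fold change divided by the root of its F value, and 95% intervals use the t distribution with the fit's degrees of freedom. Every fit was first tested on simulated counts with 200 changed genes and the same spread for all genes. That setting is simpler than these data, so it checks the code and not the power of the fits. DESeq2 1.42.0 and other alternatives are in the closing section. Coordinates, pseudogenes and the FTL sequence are from RefSeq (GRCh38.p14), which matched all 14668 symbols. Profiles used log2 of CPM plus 0.5, for genes with a mean of at least 5 CPM in each assay. Named are the 6 members, METTL13, every list gene that passed, up to 3 others per list by smallest footprint p, and the 2 genes nearest each member in profile. PCBP1 was added outside this rule, to stand beside PCBP2. A few genes that this rule took are not reported here. The members and lists were chosen with earlier results of these data known.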

Additional observations from a re-analysis of the deposited data

How the results depend on the processing

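Members that passed in footprints numbered 2 as reported, 1 with library totals alone as scaling, 1 with DESeq2, 0 with all 8 libraries in one model, and 0 to 5 with a library left out. All genes that passed in footprints numbered 2245, against 1465 with DESeq2, 0 with all 8 libraries in one model, and 701 to 3018 with a library left out. In mRNA 0 to 2509 genes and 0 to 2 members passed with a library left out. For footprints per mRNA, 5 genes passed with DESeq2, and 0 to 1384 genes and 0 to 1 members with a library left out. With 1 library left out, the lone library of a guide is taken to vary like the others. The replicate number as a block left 1729 genes, 0 members (FTL adjusted p = 0.0827, TFRC 0.0764) and 4 of the 9 list calls in footprints, and changed no count in mRNA or in footprints per mRNA. Same-numbered footprint libraries deviated apart (correlation -0.195) and RNA libraries together (0.41), so the numbers are not known to pair the samples. A block with crossed numbers, added after seeing the data, called 3220 genes, 4 members and 7 higher and 9 lower list genes in footprints. The fold changes of the 6 members in footprints kept their sign under all 11 alternatives run. Sign changes elsewhere were in values that had not passed. NCOA4 mRNA read -0.09 with the replicate block and -0.0028 with library totals alone, and IREB2 footprints per mRNA 0.007 with the block. With a library left out, mRNA ran from -0.34 to 0.13 for FTH1, from -0.44 to 0.26 for FTL, from -0.53 to 0.93 for TFRC, from -0.10 to 0.08 for ACO1, from -0.35 to 1.54 for IREB2 and from -0.65 to 0.52 for NCOA4. Footprints per mRNA ran from -0.51 to 0.89 for TFRC, from -0.97 to 0.87 for IREB2 and from -0.38 to 0.74 for NCOA4, and footprints from -0.26 to 0.05 for CIAO2A and from -0.27 to 0.0042 for NUBP1. Depth limits the ferritin and IREB2 footprints most, at 43 to 409 counts.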
